A study of Mus musculus with 8 samples.

Results

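The Serpina1 and Serpina3 genes of the mouse encode serine protease inhibitors (serpins), most of which liver cells secrete into the blood. Their levels were read in liver RNA of mice with a hepatic Foxo1 knockout and of wildtype controls. The members are 10 genes taken by name, 5 Serpina1 copies (Serpina1a to Serpina1e) and 5 Serpina3 genes (Serpina3c, Serpina3g, Serpina3k, Serpina3m and Serpina3n), of 25690 genes in the table. Identifiers were matched to names with the GENCODE mouse release M21 annotation, and each of the 10 had a row. RNA-seq of total RNA from liver gave 4 libraries labelled wildtype control, with the numbers 1, 3, 10 and 12, and 4 labelled as FOXO1 knockout, with the numbers 3, 9, 10 and 11. FOXO1 is a transcription factor of the forkhead family, and insulin signalling moves it from the nucleus to the cytoplasm. The labels give no strain, age, sex, diet or driver of the knockout, and they do not tie each library to an animal of its own. The p-values below therefore set group differences against the spread among these libraries, and may not carry over to animals.

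A serpin offers a flexible reactive centre loop as bait. The protease that cuts the loop is trapped in a covalent complex, and the residues of the loop set which proteases are caught. The Serpina1 genes are the mouse counterparts of human alpha-1 antitrypsin, the main blood inhibitor of neutrophil elastase, and the Serpina3 genes are counterparts of human alpha-1 antichymotrypsin, an acute phase protein that inhibits cathepsin G. Both sets expanded by gene duplication in rodents.

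All 10 genes are protein-coding and lie in 1 cluster of serpin genes on chromosome 12 of the mouse genome build mm10. The Serpina1 copies and Serpina3c are on the minus strand, and Serpina3g, Serpina3k, Serpina3m and Serpina3n on the plus strand. The stretch of each coding sequence that holds the reactive centre loop is shown because this loop meets the protease. Sequences are from the GENCODE M21 transcripts, 5′ to 3′, and coordinates are mm10. In the 5 Serpina1 lines, of 87 bases each, capitals mark the 18 positions at which the copies are not all alike.
Serpina1a, chr12:103853750-103853836, minus strand: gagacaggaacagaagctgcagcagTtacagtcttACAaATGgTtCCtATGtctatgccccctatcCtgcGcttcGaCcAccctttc
Serpina1b, chr12:103728317-103728403, minus strand: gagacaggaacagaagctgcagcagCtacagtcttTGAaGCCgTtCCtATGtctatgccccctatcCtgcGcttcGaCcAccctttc
Serpina1c, chr12:103895087-103895173, minus strand: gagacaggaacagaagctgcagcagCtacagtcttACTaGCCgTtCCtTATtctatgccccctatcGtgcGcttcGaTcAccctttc
Serpina1d, chr12:103763755-103763841, minus strand: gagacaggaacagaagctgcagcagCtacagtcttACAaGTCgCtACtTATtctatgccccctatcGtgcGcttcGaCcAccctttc
Serpina1e, chr12:103947093-103947179, minus strand: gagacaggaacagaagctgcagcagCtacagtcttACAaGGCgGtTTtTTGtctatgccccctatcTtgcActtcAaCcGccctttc
Serpina1e differed from the other copies at 10 to 12 of these 87 bases, and Serpina1c and Serpina1d from each other at 5. Over the whole coding sequence the 10 pairs of Serpina1 copies were 96.3% to 98.5% identical. In the 5 Serpina3 lines, which differ in length, capitals mark the bases between the conserved ends of the stretch.
Serpina3c, chr12:104147307-104147393, minus strand: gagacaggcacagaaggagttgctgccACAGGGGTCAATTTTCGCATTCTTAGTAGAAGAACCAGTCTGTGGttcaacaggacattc
Serpina3g, chr12:104241066-104241161, plus strand: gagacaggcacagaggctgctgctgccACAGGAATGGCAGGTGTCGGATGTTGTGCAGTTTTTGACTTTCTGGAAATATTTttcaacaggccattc
Serpina3k, chr12:104345263-104345352, plus strand: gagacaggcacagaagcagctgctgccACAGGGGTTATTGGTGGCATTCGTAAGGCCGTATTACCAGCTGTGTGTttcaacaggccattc
Serpina3m, chr12:104393763-104393858, plus strand: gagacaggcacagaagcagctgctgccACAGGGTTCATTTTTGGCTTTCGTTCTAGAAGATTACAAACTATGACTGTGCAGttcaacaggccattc
Serpina3n, chr12:104413442-104413537, plus strand: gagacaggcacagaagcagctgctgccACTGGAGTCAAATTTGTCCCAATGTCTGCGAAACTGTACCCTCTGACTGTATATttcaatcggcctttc
The 10 pairs of Serpina3 genes were 80.8% to 91.8% identical over the aligned coding sequence, and a Serpina1 copy and a Serpina3 gene 57.8% to 60.9%. The Serpina3g transcript used here has a coding sequence of 744 bases, against 1254 bases in Serpina3n.

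This likeness bears on each value that follows, since a fragment that matches several copies can be assigned to any of them. Of the 50-base windows of a transcript, 34.2% (Serpina1b) to 73.3% (Serpina1c) also occur in another member among the Serpina1 copies, and 35.6% in Serpina1e. Among the Serpina3 genes the share was 2.9% (Serpina3c) to 19.1% (Serpina3m), with windows shared with serpin genes outside the members not counted. The single Serpina1 values are therefore uncertain where reads were split, and the sum over the 5 copies is given beside them. Reads could also be shared where annotated genes overlap on the same strand, as Serpina1b does with Serpina1d and Serpina3k with Serpina3m. Without strand information, reads of Serpina1c and of its antisense neighbour B430119L08Rik cannot be told apart either.

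Of the 10 members, 1 rose in knockout liver and 0 fell at an adjusted p below 0.05. The gene that rose was Serpina1e, with a mean 2.28-fold that of wildtype liver. Across the 10250 genes tested, 2.70% were called higher and 11.7% lower, and 1 member of 10 is too small a count to be read against this background. Groups did not overlap, with every knockout library above every wildtype library, for Serpina1a and Serpina1e, 2 of 10 members, against 4.83% of the tested genes. The reverse held for 0 of 10 members and 16.5% of the tested genes. The log2 change was positive for 9 of the 10 members, with a median of 0.28, whereas 37.7% of the tested genes had a positive change and their median was -0.08. Copies can share reads, so their signs are not independent. Those of Serpina1a, Serpina1b, Serpina1c and Serpina1d turned negative under quantile normalization. The targeted gene, Foxo1, had 3.35 ± 0.341 FPKM (SD, n = 4) in wildtype and 0.269 ± 0.0743 FPKM (SD, n = 4) in knockout liver, and no library overlapped. FPKM divides the fragments of a gene by the length of its transcript and by the size of the library, a level that allows genes of different length to be compared. Depth was estimated from the value that 1 fragment takes and lay between 27.03 M and 35.08 M fragments. Hepatocyte markers summed to 14990 to 45045 FPKM, the lowest in knockout 10, where albumin is listed at 0 and at 20877 FPKM or more in each other library.

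**Figure D1:**
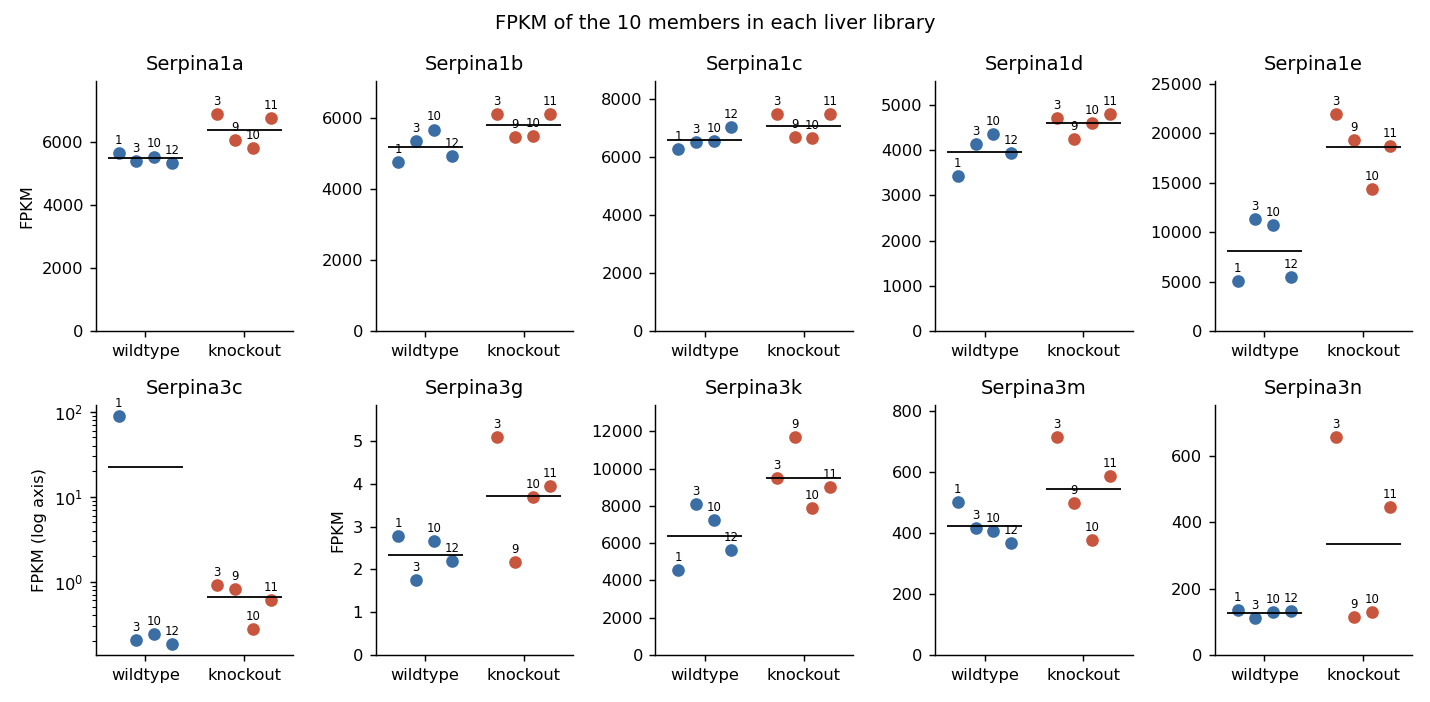
FPKM of each member in the 4 wildtype (blue) and 4 knockout (red) liver libraries, with the library number above each point and a line at the group mean; the axis starts at 0 except for Serpina3c, which has a log axis. Serpina1e lies at 5061 to 11311 FPKM in wildtype and 14341 to 21965 FPKM in knockout libraries, and Serpina3n is high in knockouts 3 and 11.

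Serpina1e (ENSMUSG00000072849, chr12:103946931-103958975, minus strand) is one of the alpha-1 antitrypsin copies. Its FPKM was 5061, 11311, 10711 and 5501 in wildtype libraries 1, 3, 10 and 12. In knockout libraries 3, 9, 10 and 11 it was 21965, 19332, 14341 and 18729. Wildtype libraries 1 and 12 were low, wildtype libraries 3 and 10 were intermediate and each knockout library was above them all. The mean was 8146 ± 3322 FPKM (SD, n = 4) in wildtype and 18592 ± 3163 FPKM (SD, n = 4) in knockout liver. The difference on the log2(FPKM + 1) scale was 1.27 with a standard error of 0.286 (limma, adjusted p = 0.0191). In the order of mean FPKM over all genes Serpina1e stood 14th in wildtype and 6th in knockout liver. The call ended without wildtype 1 (1.07, limma adjusted p = 0.0558), without wildtype 12 (1.11, adjusted p = 0.0575), without knockout 3 (1.18, adjusted p = 0.0513) and without knockouts 3 and 11 together (1.13, adjusted p = 0.103). It also ended when genes of low level were kept in the test (limma, adjusted p = 0.0763).

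The other 4 copies did not pass the test. Serpina1a (ENSMUSG00000066366, chr12:103853589-103863562, minus strand), whose product inhibits neutrophil elastase, had 5656, 5397, 5533 and 5322 FPKM in the wildtype libraries and 6891, 6052, 5810 and 6751 FPKM in the knockout libraries. Knockouts 3 and 11 were the highest, and even the lowest knockout library was above the highest wildtype library. The log2 difference of Serpina1a was 0.22 with a standard error of 0.110 (limma, adjusted p = 0.224). Serpina1b (ENSMUSG00000071178, chr12:103728156-103830373), another copy whose product inhibits neutrophil elastase, was at 5172 ± 414 FPKM (SD, n = 4) in wildtype and 5783 ± 373 FPKM in knockout liver, and the groups overlapped. Serpina1c (ENSMUSG00000079015, chr12:103894926-103904887) had 6593 ± 309 FPKM in wildtype and 7071 ± 465 FPKM in knockout liver (SD, n = 4), also with overlap. Serpina1d (ENSMUSG00000071177, chr12:103763594-103773592) had 3960 ± 402 FPKM in wildtype and 4590 ± 245 FPKM in knockout liver (SD, n = 4), with knockout 9 inside the wildtype range. Their log2 differences were 0.16, 0.10 and 0.22, with limma adjusted p of 0.378, 0.594 and 0.246. The signs of the 4 copies other than Serpina1e turned under quantile normalization, where the differences were -0.07 (Serpina1a), -0.21 (Serpina1b), -0.22 (Serpina1c) and -0.09 (Serpina1d), while that of Serpina1e was 1.20. With the trend along transcript length removed Serpina1d passed (0.43, limma adjusted p = 0.0472).

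Since copies share reads, the sum over the Serpina1 copies was taken in each library. It was 25166, 32711, 32828 and 26692 FPKM in wildtype libraries 1, 3, 10 and 12. In knockout libraries 3, 9, 10 and 11 it was 47133, 41763, 36871 and 43876 FPKM. The groups did not overlap, and the order of the wildtype libraries in 2 low and 2 high values was that of Serpina1e. The mean sum was 1.45-fold higher in knockout liver, a log2 difference of 0.54 with a standard error of 0.124. As a share of all FPKM in a library the copies made up 3.44 ± 0.508% in wildtype and 5.01 ± 0.384% in knockout liver (SD, n = 4). In knockout 10 albumin, listed at 0, is missing from that total. Without Serpina1e the sum of the other 4 copies was 21203 ± 833 FPKM in wildtype and 23819 ± 1546 FPKM in knockout liver (SD, n = 4), 1.12-fold higher and without overlap.

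The make-up of the sum differed as well. Serpina1e was 20.1%, 34.6%, 32.6% and 20.6% of the Serpina1 sum in wildtype libraries 1, 3, 10 and 12. It was 46.6%, 46.3%, 38.9% and 42.7% in knockout libraries 3, 9, 10 and 11, above every wildtype library. Each of the other 4 copies had a lower share in every knockout library than in any wildtype library. The largest of these gaps in means was that of Serpina1c, at 22.8 ± 3.32% in wildtype and 16.7 ± 1.03% in knockout liver (SD, n = 4). Shares of 1 sum depend on each other, so a higher share of Serpina1e lowers the rest. The sources used here do not say how the authors' tools divided reads between the copies, and the part of this division in the shares was not tested.

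**Figure D2:**
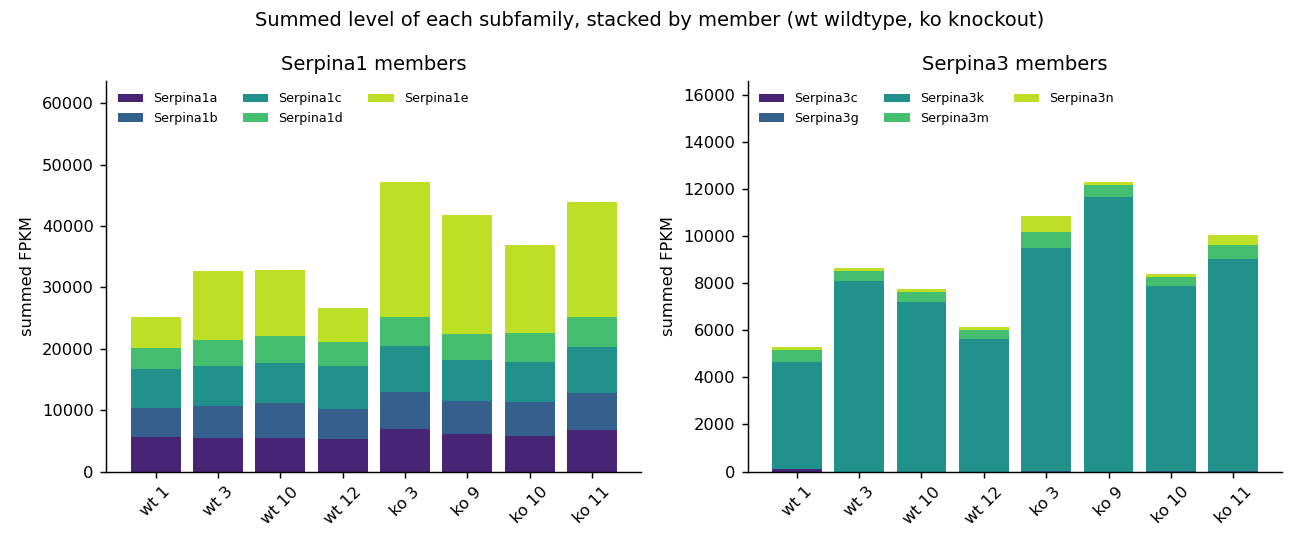
Summed FPKM of the Serpina1 (left) and Serpina3 (right) members in each library, each bar stacked by member, on linear axes from 0. Serpina1e is the largest segment of the Serpina1 sum in each knockout library (38.9% to 46.6%), and Serpina3k is 86.2% to 95.0% of the Serpina3 sum in every library.

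The Serpina1 promoters were near copies of each other. RefSeq promoter windows (250 bases before to 50 after the gene start, GRCm38.p6) were found for 8 of the 10 members. Those of Serpina1a and Serpina1e, a copy that did not pass the test and the copy that did, are shown up to the annotated start, with capitals for GTTAAT, letters that are part of the motif of the liver factor HNF1.
Serpina1a upstream, chr12:103863620-103863869, minus strand: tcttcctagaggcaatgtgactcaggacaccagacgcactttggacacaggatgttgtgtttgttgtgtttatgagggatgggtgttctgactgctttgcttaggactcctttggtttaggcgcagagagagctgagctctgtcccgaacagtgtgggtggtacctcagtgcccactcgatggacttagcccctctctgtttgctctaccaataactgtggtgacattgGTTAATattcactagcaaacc
Serpina1e upstream, chr12:103956898-103957147, minus strand: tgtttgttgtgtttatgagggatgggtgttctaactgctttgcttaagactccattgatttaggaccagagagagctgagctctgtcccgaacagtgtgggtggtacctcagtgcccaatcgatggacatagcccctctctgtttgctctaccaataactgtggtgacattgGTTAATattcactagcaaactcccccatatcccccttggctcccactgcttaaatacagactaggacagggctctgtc
The windows of Serpina1e and Serpina1a aligned over 243 bases, of which 233 were identical (95.9%), and those of Serpina1e and Serpina1b over 248 bases at 98.4%. The start annotated for Serpina1e lies further downstream, so that GTTAAT begins 78 bases before it and 21 bases before that of Serpina1a. Searched on both strands, GTTAAT was in the windows of all 5 Serpina1 copies and of Serpina3c, 6 of 8, against 7.10% of 32851 windows. The letters GTAAACA, bound by FOXO factors, were in 0 of 8 windows and 3.65% of all windows. Only these exact letters were searched, so near variants were not counted. Both stretches shown hold tgtttat, the other strand of ATAAACA, which differs from the searched letters at the first base. The letters TTCNNNGAA, bound by STAT factors, were in 1 of 8, that of Serpina3g, and 8.30% of all windows. A match is a description of the letters and not a bound site.

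None of the 5 Serpina3 genes passed the test, where 2.70% of the tested genes were called higher, and 2 of them (Serpina3g and Serpina3k) had an unadjusted limma p below 0.05. The values of the 5 Serpina3 genes fell into different patterns by library. Serpina3k (ENSMUSG00000058207, chr12:104338486-104346144, plus strand), which encodes a plasma inhibitor that binds tissue kallikrein, supplied most of the Serpina3 sum. Its FPKM was 4575, 8112, 7218 and 5638 in wildtype libraries 1, 3, 10 and 12 and 9479, 11675, 7871 and 9033 in knockout libraries 3, 9, 10 and 11. Wildtype libraries 1 and 12 were again the low ones, and knockout 10 lay below wildtype 3, so the groups overlapped. The mean was 6386 ± 1582 FPKM in wildtype and 9514 ± 1592 FPKM in knockout liver (SD, n = 4), and the log2 difference was 0.60 with a standard error of 0.202 (limma, adjusted p = 0.0801).

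Serpina3n (ENSMUSG00000021091, chr12:104406729-104414329, plus strand) encodes a secreted inhibitor of cathepsin G and granzyme B and is known as an acute phase gene. It had 137, 112, 128 and 132 FPKM in the wildtype libraries and 657, 113, 130 and 446 FPKM in knockouts 3, 9, 10 and 11. Knockout 3 was at 5.16-fold the wildtype mean and knockout 11 was also above every wildtype library, and knockouts 9 and 10 were inside the wildtype range. The log2 difference was 1.01 with a standard error of 0.511 (limma, adjusted p = 0.221), and without knockouts 3 and 11 it was -0.07 (adjusted p = 0.750). In that comparison of 2 knockout libraries with 4 wildtype libraries 1.88% of tested genes were called higher, and 0 of the 10 members.

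The same 2 knockout libraries stood apart in acute phase genes, the liver proteins that inflammation induces. Serum amyloid A1 (Saa1) was 97.3, 98.9, 78.3 and 195 FPKM in the wildtype libraries and 28413, 573, 266 and 33012 FPKM in knockouts 3, 9, 10 and 11. Saa2 was 24.4 to 86.5 FPKM in wildtype, 25344 and 29339 FPKM in knockouts 3 and 11 and 169 and 74.1 FPKM in knockouts 9 and 10. These acute phase levels were thus far above wildtype in knockouts 3 and 11. Lcn2, a neutrophil and hepatocyte protein that binds bacterial siderophores, reached 902 and 565 FPKM in knockouts 3 and 11, had 26.95 FPKM in knockout 9 and 9.06 FPKM in knockout 10, with at most 6.96 FPKM in wildtype. The plasma protein Orm2 had 3362 and 4407 FPKM in knockouts 3 and 11, against 102 and 101 FPKM in knockouts 9 and 10 and 84.1 to 116 FPKM in wildtype. Haptoglobin (Hp), which binds free haemoglobin, had 953 to 1053 FPKM in wildtype libraries and 7096, 1480, 1122 and 6575 FPKM in the knockout libraries, in the order 3, 9, 10 and 11. Of 26 acute phase genes that are not serpins, all tested, 3 were called higher (against 2.70% of all tested genes) and 0 lower. An unadjusted limma p below 0.05 was found for 17, with no share of all tested genes counted at that threshold. The median log2 change was 1.10 against -0.08 over all tested genes. The 3 called higher were Lrg1 (2.19, limma adjusted p = 0.0147), the complement protein C3 (0.82, adjusted p = 0.0234) and the fibrinogen chain Fga (0.97, adjusted p = 0.0492). The groups did not overlap for any of the 3, so their rise was not limited to 2 libraries. With knockouts 3 and 11 left out, the 3 still passed, at smaller differences. These were 1.22 for Lrg1 (limma, adjusted p = 0.00968), 0.50 for C3 (adjusted p = 0.0372) and 0.48 for Fga (adjusted p = 0.0481).

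Summed markers of neutrophils, the cells that release the elastase and cathepsin G caught by these serpins, were high in knockouts 3 and 11. Over 10 neutrophil markers the summed FPKM was 1.58 to 5.21 in wildtype and 62.8, 2.80, 6.11 and 155 in knockouts 3, 9, 10 and 11. In wildtype, S100a8 was 0.825 to 3.19 and S100a9 0.193 to 2.16 FPKM, and in knockouts 3 and 11 S100a8 was 31.4 and 77.2 and S100a9 24.3 and 57.5 FPKM. S100a8 and S100a9 made up most of the sum in knockouts 3 and 11. Cxcr2 and Elane were inside the wildtype range in knockout 3. Cxcr2 was at 0.332 FPKM there, against 0.250 to 0.352 FPKM in wildtype, and Elane at 0.234, against 0 to 0.298 FPKM. The other markers of the list were above every wildtype library in knockouts 3 and 11. Ltf and Ly6g were listed at 0 in each wildtype library. Of the markers 3 passed the filter on low levels and 0 were called, with 1 at an unadjusted limma p below 0.05. Their part in the level of Serpina3n or of other members was not tested. In liver tissue, more or fewer cells of a type cannot be told apart from more or less RNA per cell. For Serpina1e, knockouts 9 and 10, at 19332 and 14341 FPKM, were above every wildtype library too.

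**Figure D3:**
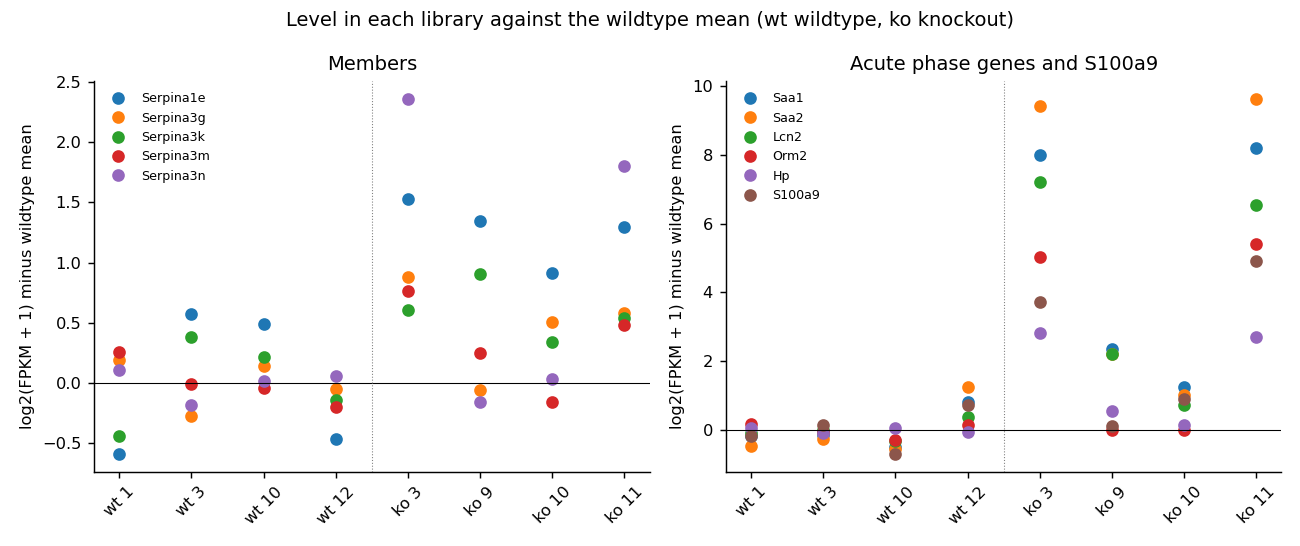
Log2(FPKM + 1) of 5 members (left) and of acute phase genes with the neutrophil gene S100a9 (right) in each library, less the wildtype mean, on axes of different range. Serpina3n stands at 2.36 in knockout 3 and 1.80 in knockout 11 and at -0.16 and 0.03 in knockouts 9 and 10, while Serpina1e is at 0.91 or above in all 4.

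Serpina3m (ENSMUSG00000079012, chr12:104338486-104394257, plus strand) had 500, 415, 405 and 365 FPKM in the wildtype libraries and 713, 499, 376 and 585 FPKM in the knockout libraries. Knockouts 3 and 11 were the highest of the 8 libraries, and the groups overlapped. Its log2 difference was 0.34 with a standard error of 0.189 (limma, adjusted p = 0.268), and 0.05 without knockouts 3 and 11 (adjusted p = 0.882). Serpina3g (ENSMUSG00000041481, chr12:104236245-104241939, plus strand), which encodes an intracellular inhibitor of cathepsin B known from lymphocytes and macrophages, was a low gene. Its FPKM was 1.75 to 2.77 in wildtype, lowest in library 3, and 5.09, 2.18, 3.70 and 3.96 in knockout libraries, about 85 to 304 fragments. Knockout 9 was inside the wildtype range and the other 3 knockout libraries were above it. The log2 difference was 0.47 with a standard error of 0.192 (limma, adjusted p = 0.131). Without knockout 9 it passed (0.65, limma adjusted p = 0.0223), and without knockouts 3 and 11 it was 0.22 (adjusted p = 0.515). In the liver's other cells, 0 of 9 tested Kupffer cell and macrophage markers and 0 of 3 stellate cell markers were called. Of these, 0 and 1 had an unadjusted limma p below 0.05. Of 6 sinusoidal endothelium markers 2 fell, against 11.7% of all tested genes. They were the receptors Stab1 (-1.02, limma adjusted p = 0.0148) and Fcgr2b (-0.59, adjusted p = 0.0130). The part of these cell types in the level of Serpina3g was not tested. Lymphocyte markers summed to 1.01 to 2.03 FPKM in wildtype and 1.91 to 2.71 FPKM in knockout libraries. The largest part of this sum in each knockout library was Cd4, at 0.331 to 1.26 FPKM in wildtype and 0.943 to 1.71 FPKM in knockout libraries (limma, adjusted p = 0.101), while the means of Cd3d, Cd3e, Ms4a1 and Nkg7, all under the filter, were lower in knockout liver.

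Serpina3c (ENSMUSG00000066361, chr12:104146382-104153870, minus strand) was high in 1 library. It was at 89.3 FPKM in wildtype 1, an estimated 5951 fragments, and at 0.205, 0.240 and 0.186 FPKM in wildtype libraries 3, 10 and 12. The knockout libraries had 0.902, 0.825, 0.274 and 0.610 FPKM, estimated at 20 to 66 fragments. Each knockout library was above the 3 low wildtype libraries and far below wildtype 1. The gene passed the filter on low levels through that library. The log2 difference was -1.12 with a standard error of 1.25 (limma, adjusted p = 0.596). Without wildtype 1, and with no filter on low levels, it was 0.43 (limma, adjusted p = 0.164).

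Summed over the Serpina3 genes, FPKM was 5305, 8641, 7754 and 6138 in wildtype libraries 1, 3, 10 and 12 and 10855, 12290, 8380 and 10068 in knockout libraries 3, 9, 10 and 11. Knockout 10 was below wildtype 3, and the other 3 knockout libraries were above every wildtype library. The mean sum was 1.49-fold higher, a log2 difference of 0.59 with a standard error of 0.197, and 0.57 without knockouts 3 and 11. Serpina3k was 91.3 ± 3.45% of the sum in wildtype and 91.5 ± 3.59% in knockout liver (SD, n = 4), so that the sum mainly repeats Serpina3k. Serpina3n was 6.05% and 4.43% of the sum in knockouts 3 and 11 and at most 2.58% in the other 6 libraries.

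In wildtype liver the order by mean FPKM was Serpina1e, Serpina1c, Serpina3k, Serpina1a, Serpina1b, Serpina1d, Serpina3m, Serpina3n, Serpina3c and Serpina3g. Serpina1e, Serpina1c and Serpina3k had overlapping ranges, as had Serpina1a and Serpina1b, and the place of Serpina3c rests on wildtype 1. Serpina1a and Serpina1b also lay inside the range of Serpina3k, 4575 to 8112 FPKM, and overlapped that of Serpina1e. The lowest Serpina1c library, at 6278 FPKM, was above the highest Serpina1a library, at 5656 FPKM. Serpina1d, at 3419 to 4363 FPKM, was below each other Serpina1 copy. In knockout liver Serpina1e and Serpina3k were the highest, with the lowest Serpina1e library at 14341 FPKM and the highest Serpina3k library at 11675 FPKM.

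For comparison, the table holds 53 other serpin genes. Of these, 15 were tested, 0 were called higher and 1 lower, against 2.70% and 11.7% of all tested genes. The median log2 change was -0.05. An unadjusted limma p below 0.05 was reached by 4, with no share of all tested genes counted at that threshold. Those 4 differed in direction, with Serping1 at 0.67, Serpina10 at 0.57, Serpina6 at -0.56 and Serpinb6a at -0.49. The one that passed and fell was Serpinb6a, an intracellular inhibitor, at 20.6 ± 0.964 FPKM in wildtype and 14.6 ± 3.28 FPKM in knockout liver (SD, n = 4), a log2 difference of -0.49 (limma, adjusted p = 0.0465) that lost its call in 13 of 20 alternatives. Of 14 other Serpina genes in the chromosome 12 cluster 5 were tested and 0 called, with 2 at an unadjusted limma p below 0.05. The difference between the members and the other serpins was not tested.

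**Figure D4:**
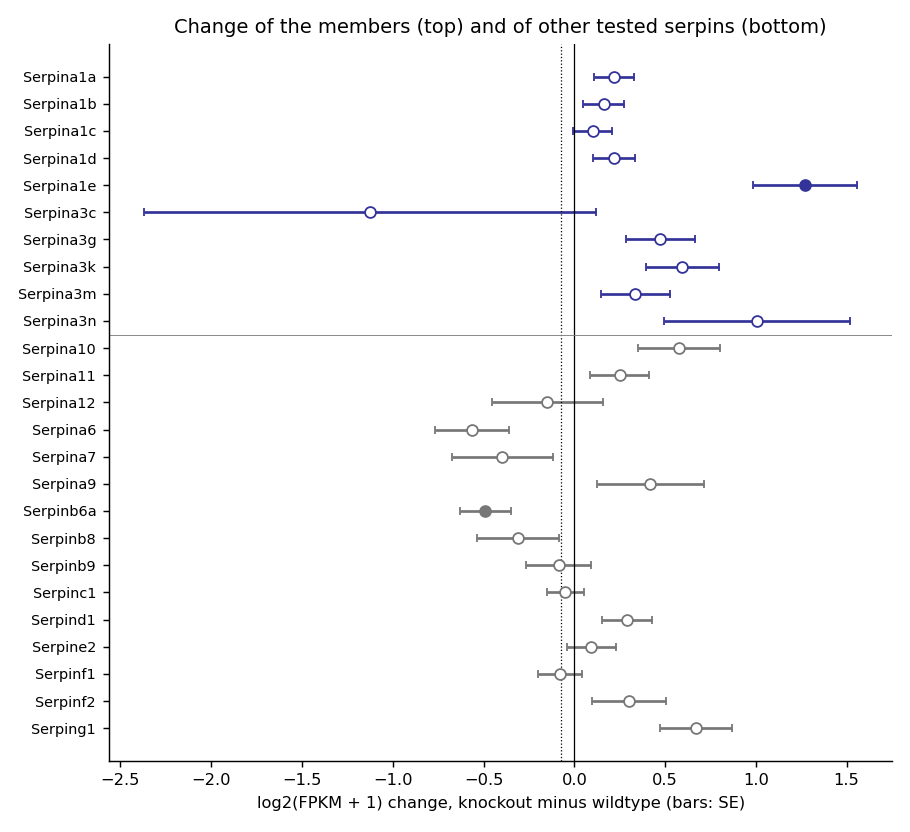
Log2(FPKM + 1) change, knockout minus wildtype, with its standard error, for the 10 members (blue) and the 15 other tested serpins (grey); filled points passed at an adjusted p below 0.05, the solid line marks 0 and the dotted line the median of all tested genes (-0.08). Serpina1e at 1.27 and Serpinb6a at -0.49 are the filled points, and Serpina3c has the widest bar.

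Genes that work with these inhibitors were counted from fixed lists. Over all tested genes 2.70% were called higher and 11.7% lower. Of the proteases that serpins of these families inhibit, 7 of 18 were tested, 0 were called higher and 1 lower. That gene was Cela1, a pancreatic-type elastase, at 61.3 ± 6.67 FPKM in wildtype and 36.7 ± 6.42 FPKM in knockout liver (SD, n = 4), a log2 difference of -0.73 (limma, adjusted p = 0.00985). The neutrophil proteases of the list differed in level. Proteinase 3 (Prtn3) was at 0.267 to 0.579 FPKM in wildtype libraries and 56.5, 0.573, 1.87 and 26.6 FPKM in knockout libraries 3, 9, 10 and 11, a log2 difference of 2.68 that did not pass (limma, adjusted p = 0.107). Neutrophil elastase (Elane) and cathepsin G (Ctsg) were under the filter on low levels. Elane was at 0 to 0.298 FPKM in wildtype and 0.234, 0.0429, 0.232 and 0.741 FPKM in knockout libraries 3, 9, 10 and 11. Ctsg was at most 0.0386 FPKM in wildtype and 0.0706, 0, 0 and 0.232 FPKM in the knockout libraries. Of cytokine receptors, their signal carriers and liver transcription factors, 6 of 19 tested genes had an unadjusted limma p below 0.05. The share of all tested genes at that threshold was not counted, so such counts have no background beside them. The median log2 change of the 19 was 0.22. At the adjusted threshold 3 rose and 0 fell. They were the interleukin-1 receptor Il1r1 (1.04, limma adjusted p = 0.0144), and the liver transcription factors Foxa3 (0.54, adjusted p = 0.0413) and Hnf4a (0.43, adjusted p = 0.0494). Stat3, which carries the interleukin-6 signal, was at 13.4 ± 3.45 FPKM in wildtype and 19.5 ± 6.26 FPKM in knockout liver (SD, n = 4) and did not pass (limma, adjusted p = 0.155). None of 9 tested growth hormone signal genes was called, with 3 at an unadjusted limma p below 0.05 and a median of 0.05. The most abundant of them were Igf1 (0.05, limma adjusted p = 0.798) and the growth hormone receptor Ghr (-0.08, adjusted p = 0.692). Of 18 genes for folding, disposal and export of secreted proteins, the path on which misfolded alpha-1 antitrypsin is cleared, 1 rose and 0 fell, with a median of 0.20. It was Edem2, which marks misfolded glycoproteins for degradation, at 16.5 ± 1.73 FPKM in wildtype and 22.2 ± 2.11 FPKM in knockout liver (SD, n = 4; limma, adjusted p = 0.0318). Of 20 alternatives, the call ended in 14 for Hnf4a, in 11 for Fga, in 8 for Foxa3, in 7 for C3 and in 6 for Edem2.

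The genes whose pattern over the 8 libraries was most like that of a member were named by the mean absolute difference of centred log2(FPKM + 1), a measure in which 0 is an identical pattern, among 10240 genes compared. For Serpina1e they were Ppp1r14a (0.25), Egfr (0.28) and Il1r1 (0.29). For Serpina3n they were Itih4 (0.16), Itih3 (0.18) and Nrg4 (0.19). Itih4 was at 317 to 331 FPKM in wildtype and at 1428, 381, 375 and 1088 FPKM in knockouts 3, 9, 10 and 11. For the Serpina1 sum they were Smpd1 (0.09), Gm2a (0.09) and Ano10 (0.09), and for the Serpina3 sum C8b (0.13), Tmem268 (0.14) and C9 (0.14). These values describe 8 libraries and carry no test.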

How the data were processed

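RNA-seq of liver was deposited as 1 table of FPKM for 25690 genes in 8 libraries, with the authors' library names as header. The unit was read from the values. TopHat2 2.1.0, HTSeq, Cufflinks 2.2.1 and the build mm10 are listed in the submitters' processing notes, without role or order, and annotation, strand setting and read sharing between copies could not be read from the sources used here. Since FPKM is no count, no count model was applied, and genes whose mean reached 1 FPKM were fitted as log2(FPKM + 1) with limma 3.58.1 in R 4.3.3 (genotype as the only term, variances with a mean trend, two-sided, Benjamini-Hochberg adjustment over the 10250 genes, threshold 0.05). This scale understates changes of low genes. Sums and shares carry no test. The steps were tested on simulated data. Names, coordinates and transcripts came from GENCODE M21, promoters from RefSeq (GRCm38.p6), and alignments were made with Biopython 1.88. Named are the 10 members, Foxo1, passing other serpins, up to 3 passing genes of each list (otherwise the most abundant), the 3 genes most like Serpina1e, Serpina3n and each sum, and 7 acute phase or neutrophil genes. B430119L08Rik, Alb, Elane, Ctsg, Prtn3, Cd3d, Cd3e, Ms4a1, Nkg7, Ltf, Ly6g, Cxcr2, Serping1, Serpina6, Serpina10 and Stat3 were added after their values were seen. Members, lists and rules were chosen with earlier results of these data known. As alternatives the pseudocount, filter, scaling, length trend, variance model and library weights were changed, a replicate block was added, and libraries were left out.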

Additional observations from a re-analysis of the deposited data

Results flagged for a closer look

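In 42 groups of 4 values that were checked for a single library standing apart, 2 met the criterion, and chance flags about 1 group in 20. Serpina3c in wildtype liver was the first, with wildtype 1 at 89.3 FPKM and the other 3 libraries at 0.186 to 0.240 FPKM. The gap took up 0.990 of the whole range, above the limit for a group of 4. Saa2 in wildtype liver was the other, with wildtype 12 at 86.5 FPKM and the rest at 24.4 to 30.1 FPKM, a gap of 0.834 of the range. No cause was tested for either.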

How the results depend on the processing

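The number of members called higher, 1 in the fit reported, was 0 with no filter on low values, 0 with the replicate block and 0 without knockouts 3 and 11, and it was 2 with the length trend removed. Leaving out 1 library at a time it ranged from 0 to 2, and 0 members were called lower under any alternative. The Serpina1 sum differed by 0.31 (log2) under quantile normalization and by 0.72 with the length trend removed, against 0.54. Over leave-one-out settings it stayed between 0.46 and 0.60, and the Serpina3 sum between 0.47 and 0.70. Quantile normalization turned Serpina1a (-0.067), Serpina1b (-0.212), Serpina1c (-0.224) and Serpina1d (-0.091), and leaving out knockouts 3 and 11 turned Serpina3n (-0.068). Serpina3c turned to 0.35 with the replicate block and to 0.43 without wildtype 1 and the filter, the last chosen after seeing the data. For the turned values the cause was not tested.

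Of other serpins, 1 was called higher at a mean of at least 5 FPKM, with the length trend removed, with robust variances and with array weights, 2 under quantile normalization, and 0 to 2 over the leave-one-out settings. The 1 called lower was lost (0) with no filter, median-ratio scaling, quantile normalization, the length trend removed, the replicate block and without knockouts 3 and 11, and it was 0 to 1 over the leave-one-out settings. Over all tested genes, 277 higher and 1195 lower became 485 and 720 with median-ratio scaling, 470 and 652 under quantile normalization, and 517 and 584 with the length trend removed. Without knockouts 3 and 11 the lower calls were 653. Leaving out 1 library gave 105 to 361 higher and 598 to 1296 lower, both lowest without wildtype 1.

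Only the numbers 3 and 10 occur in both groups. Deviations of same-numbered libraries correlated at -0.01 (number 3) and 0.02 (number 10). Those of libraries with unlike numbers lay between -0.11 and 0.15. Such values cannot show whether same-numbered libraries share more than the number. The replicate block left 1 gene higher and 1 lower, with Serpina1e at 0.69 (limma, adjusted p = 0.478). Serpina3c and Serpina3g, the members with the fewest fragments, are the least precise.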
